A study of Homo sapiens with 6 samples.

Results

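The genes described here encode the enzymes and transporters of glycolysis, the hypoxia-inducible factors (HIF) with their regulators, and targets of these factors. They were taken by symbol from a list of 40 genes, of which 39 have a row among the 15024 genes of the table. CA9 was not analysed here. All 39 were among the 14343 genes tested. The RNA came from MDA-MB-231, an established triple-negative breast cancer line of mesenchymal habit, which carried a non-targeting guide (sgNT). Every culture had received 10 µM forskolin, an activator of adenylyl cyclase and so of protein kinase A, for 14 days. The cells were then sorted as CD44+CD104high, which the design calls a hybrid epithelial-mesenchymal state, or CD44+CD104-/low, which it calls mesenchymal. CD104 is integrin beta 4, the product of ITGB4, and the groups are called CD104high and CD104low below. Each group had 3 libraries, numbered 1 to 3 as biological replicates, and no group without forskolin and none of another genotype was analysed here.

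Glycolysis splits glucose into pyruvate in the cytosol, and the steps of hexokinase and phosphofructokinase are among its regulated ones. Tumour cells often turn pyruvate into lactate even with oxygen at hand. Most steps can be served by several isozymes, encoded by separate genes, that differ in how they are regulated and in the tissues that use them. HIF is a transcription factor of an alpha subunit (HIF1A or EPAS1) and ARNT. When oxygen is present, prolyl hydroxylases of the EGLN family mark the alpha subunit, and the VHL protein directs its destruction. Without oxygen the factor accumulates as a protein and switches on many glycolytic genes, so that the mRNA of HIF1A is not a measure of its activity.

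The factor binds a short core, ACGTG or GCGTG, and CACGTG, which holds ACGTG on both strands, is also read by MYC and by the glucose-sensing MondoA and ChREBP. Both cores were searched on both strands of the 250 bases upstream of RefSeq transcription starts (GRCh38.p14). Overlapping matches were counted as 1 site. RefSeq gave 65 such windows for 34 of the 40 genes. At least 1 site stood in 37 of the 65 windows (56.9%), against 43.2% of 35116 windows of all genes, and CACGTG stood in 10 (15.4%), against 6.34%. Of the windows of members that were lower in CD104high, 7 of 9 held a site, of those that were higher 7 of 10, and of those that did not pass the test 22 of 45. A gene can have several, partly overlapping windows, and HK1 and PFKM, which did not pass, have 7 each. The counts are therefore of windows and not of genes, and differences between them were not tested. These matches describe letters and do not show that a factor binds there. The windows printed are those of HK2, the member with the largest difference, of a pair of phosphofructokinase genes that went opposite ways, of HIF1A and TXNIP, which were higher, and of TPI1, which did not pass. They were picked after the values were seen, among windows with at most 21 bases of annotated exon of their own gene. Each reads 5′ to 3′ on the gene's strand and ends at the base before the start, and capitals mark the sites.
HK2 (chr2:74834920-74835169, plus strand): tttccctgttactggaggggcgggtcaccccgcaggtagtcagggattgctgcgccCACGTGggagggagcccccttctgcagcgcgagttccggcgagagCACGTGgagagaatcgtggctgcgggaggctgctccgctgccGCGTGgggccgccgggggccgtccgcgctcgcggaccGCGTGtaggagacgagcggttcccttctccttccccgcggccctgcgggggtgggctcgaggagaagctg
PFKP (chr10:3068939-3069188, plus strand): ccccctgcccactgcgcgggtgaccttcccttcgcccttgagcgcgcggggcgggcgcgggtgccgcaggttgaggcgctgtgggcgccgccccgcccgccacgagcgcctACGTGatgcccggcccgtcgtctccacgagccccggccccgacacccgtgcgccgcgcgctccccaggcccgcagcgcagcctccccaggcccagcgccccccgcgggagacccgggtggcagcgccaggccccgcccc
PFKL (chr21:44299803-44300052, plus strand): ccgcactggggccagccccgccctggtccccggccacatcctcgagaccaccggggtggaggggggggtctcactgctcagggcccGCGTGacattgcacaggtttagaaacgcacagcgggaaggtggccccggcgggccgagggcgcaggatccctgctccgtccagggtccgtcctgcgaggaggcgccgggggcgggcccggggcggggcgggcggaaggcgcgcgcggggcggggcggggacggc
HIF1A (chr14:61695263-61695512, plus strand): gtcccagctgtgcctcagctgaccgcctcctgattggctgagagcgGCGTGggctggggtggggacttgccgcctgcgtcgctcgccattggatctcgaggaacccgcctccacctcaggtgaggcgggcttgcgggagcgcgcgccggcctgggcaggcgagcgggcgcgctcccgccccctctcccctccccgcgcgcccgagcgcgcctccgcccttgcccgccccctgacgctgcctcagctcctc
TXNIP (chr1:145996580-145996829, minus strand): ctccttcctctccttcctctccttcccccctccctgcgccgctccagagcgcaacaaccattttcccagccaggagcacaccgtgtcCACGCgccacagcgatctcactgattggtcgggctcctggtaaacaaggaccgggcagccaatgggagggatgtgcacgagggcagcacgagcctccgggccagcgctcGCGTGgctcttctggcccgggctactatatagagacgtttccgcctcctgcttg
TPI1 (chr12:6867855-6868104, plus strand): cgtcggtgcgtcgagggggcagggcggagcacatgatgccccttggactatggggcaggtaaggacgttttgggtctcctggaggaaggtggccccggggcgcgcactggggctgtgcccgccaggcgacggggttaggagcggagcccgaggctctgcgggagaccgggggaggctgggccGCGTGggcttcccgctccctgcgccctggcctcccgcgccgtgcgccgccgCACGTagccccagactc

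The HK2 window held 4 sites, of which 2 were CACGTG, and it lies inside the annotated span of the gene, upstream of a later RefSeq start. The printed windows of PFKP, PFKL and HIF1A held 1 site each, and those of TXNIP and TPI1 held 2 each. Other windows of these genes differed, with 0 or 3 sites for PFKP, 3 for HK2, 1 for TXNIP and 0 for HIF1A and TPI1. In the printed windows the number of sites did not separate the members that were higher from those that were lower or from TPI1. With 1 window picked per gene, no more is read from it.

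Libraries held between 52088604 and 56958065 gene reads. ITGB4, the gene of the sort marker, was 5.83-fold higher in CD104high, at 15970 to 19493 normalised reads against 2317 to 3802. The markers VIM, CD44, ZEB1, FN1 and AXL of this line were present in all 6 libraries, with VIM at 20735 to 23439 reads. FN1 was 1.73-fold higher in CD104high (25711 to 30847 against 13475 to 22616 reads, limma adjusted p = 0.00781), and the other 4 did not pass. Among these 4, CD44 was lower in CD104high without overlap of the groups (limma adjusted p = 0.113). Of the receptor genes of other breast cancers ERBB2 had 7443 to 9262 reads, while ESR1 and PGR were not analysed here. Luminal genes were present in all 6 libraries too, KRT8 at 51573 to 64457 reads, KRT18 at 13363 to 17050, GATA3 at 1089 to 1975 and EPCAM at 506 to 798. The 5 luminal genes with a row, ERBB2 among them, did not pass the test. Markers of other cells were checked as lists. Of 7 leukocyte genes 1 has a row, CD14, at 534 to 573 in CD104high and 240 to 263 in CD104low, and PTPRC, the defining gene, has none. Of 4 endothelial genes 2 have a row, with sums of 60.7 to 130 and 88.6 to 115. The 6 fibroblast genes summed to 5067 to 7483 in CD104high and 3125 to 5156 in CD104low, with COL1A2 higher (log2 fold change 1.5, limma adjusted p = 0.00402) and DCN and PDGFRA at 9.9 or less. LUM (log2 fold change 2.2, limma adjusted p = 0.0591) and PDGFRB (0.62, adjusted p = 0.128) did not pass but were higher in all 3 same-numbered pairs. COL1A1 did not pass either (0.09, adjusted p = 0.65). CD14 and COL1A2 were the genes of the lists of other cells that passed the test, while the endothelial sums and the fibroblast sums overlapped between the groups. The part of CD14 and of the fibroblast genes in the results below was not tested.

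The comparison asked how the genes of sugar use and oxygen sensing differed between the sorted states. Of the phosphofructokinase subunits PFKL was higher and PFKP lower, and of their regulators PFKFB2 was higher and PFKFB3 lower, with the calls of PFKP and PFKFB3 lost when single libraries were left out. The abundant enzymes from triose phosphate to pyruvate, ENO2 aside, did not pass the test. HK2, the inducible hexokinase, was 2.27-fold lower in CD104high. TXNIP, a brake on glucose uptake, was 1.82-fold higher, and so, by smaller steps, were ALDOC, PFKFB2, PFKL, SLC2A3, HIF1A, BNIP3L, PDK2 and ENO2. GPI, PFKP and PFKFB3 fell along with HK2. In all, 9 of the 39 members were higher (23.1%) and 4 were lower (10.3%) by limma at an adjusted p under 0.05, while over all tested genes 12.1% were higher and 11.3% lower, 23.4% in either direction. The remaining 26 did not pass, with log2 fold changes between −0.40 and 0.31. The groups did not overlap for 10 members higher and 7 lower in CD104high (43.6%), against 41.2% of all tested genes, of which 19.9% were higher and 21.3% lower. The median log2 fold change was 0.06, against 0.01 over all tested genes. It was positive for 22 members and negative for 17, against 7340 and 7003 of all tested genes. Whether the members lean in a common direction was not tested. The bulk values cannot tell a smaller number of cells with a transcript from less transcript in each cell.

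**Figure D1:**
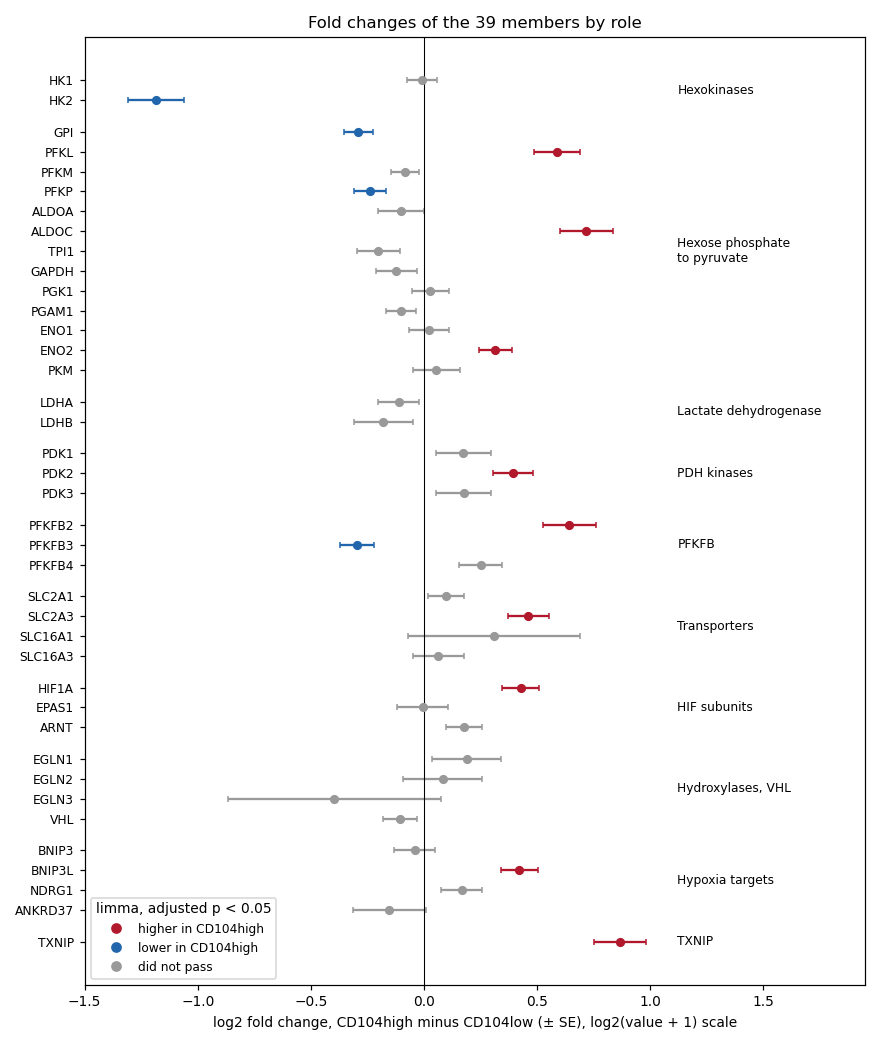
Log2 fold change of each of the 39 members (CD104high minus CD104low, log2(value + 1) scale, horizontal axis) with its standard error (bars), grouped by role on the vertical axis. Red points are the 9 members higher and blue points the 4 members lower at an adjusted p under 0.05, and HK2 at −1.19 and TXNIP at 0.86 are the extremes.

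Hexokinase traps glucose in the cell as its phosphate. HK2 (chromosome 2, 74833981 to 74893359, plus strand) had 975, 1039 and 885 normalised reads in the CD104high libraries 1 to 3 and 2508, 2326 and 1813 in the CD104low libraries. Every CD104low library stood above every CD104high library, and number 3 was the lowest in both groups. The log2 fold change was −1.19 (SE 0.12, adjusted p = 0.000359), and HK2 was lower in all 3 same-numbered pairs. HK1, the constitutive form, had 19699, 19783 and 18571 against 18449, 20578 and 19392 reads, and the groups overlapped (log2 fold change −0.01, SE 0.07, adjusted p = 0.944). Per kilobase of exon HK1 was far above HK2 in both groups. HK2 made up 4.93% ± 0.23 (SD, n = 3) of the hexokinase level per kilobase in CD104high and 10.6% ± 1.76 in CD104low. The log2 ratio of HK2 to HK1 was −4.33 ± 0.07 and −3.15 ± 0.27, a difference of −1.18 without overlap of the groups (exact permutation test, two-sided, p = 0.1).

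That p is the smallest that 3 against 3 libraries allow, and it was reached by 10 of 18 pairs of isozymes or paralogs compared within libraries, all with an adjusted p of 0.18 over the 18 pairs. The pair differences below are therefore given by size and overlap, and none passed the test. Of the 10 pairs without overlap, 5 ratios were higher and 5 lower in CD104high. Single genes already lacked overlap in 41.2% of all tested genes, and no share over other pairs of genes was computed. Several of the pairs share a gene, and ALDOC/ALDOA, whose value is uncertain, is among the 10. The count is therefore not read as a result about isozymes.

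**Figure D2:**
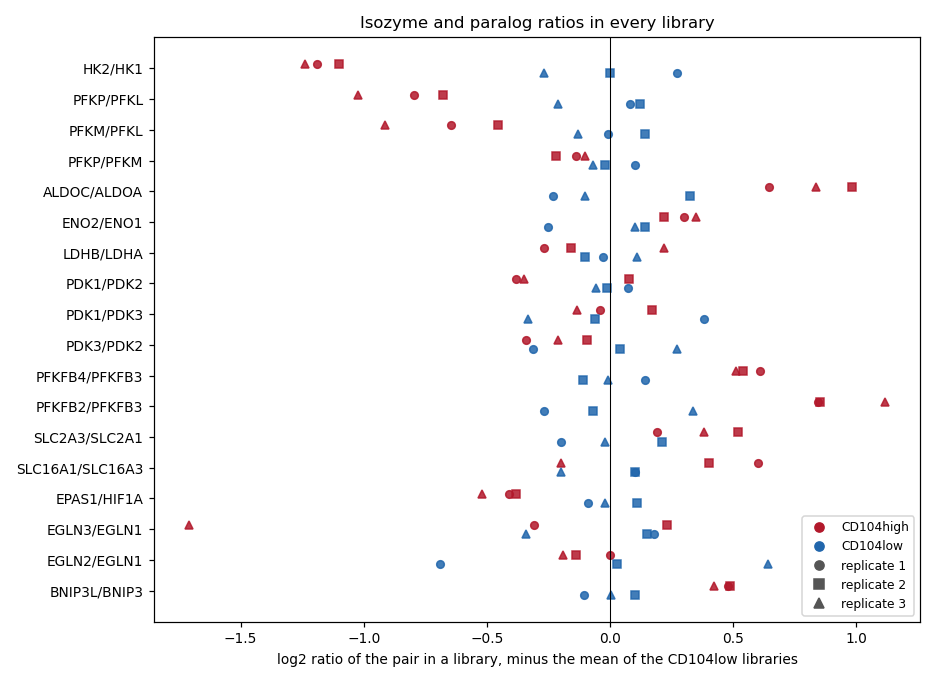
Log2 ratio of the normalised reads of 18 pairs of isozymes or paralogs (vertical axis) in each library, less the mean of the CD104low libraries (horizontal axis), red for CD104high and blue for CD104low, with a symbol for each replicate number. The red points lie apart from the blue ones for 10 pairs, among them HK2/HK1, PFKP/PFKL and PFKFB2/PFKFB3, and the 3 pairs of pyruvate dehydrogenase kinases overlap.

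Glucose enters through the transporters of the SLC2A family. SLC2A1, the widespread transporter of tumour cells, was the most abundant of them and did not pass, at 45312, 43336 and 41483 reads against 44362, 38694 and 38827 (log2 fold change 0.10, SE 0.08, adjusted p = 0.405). SLC2A3, a high-affinity transporter best known from neurons, had 4652, 5602 and 4877 reads in CD104high and 3481, 4052 and 3452 in CD104low. It was 1.38-fold higher (log2 fold change 0.46, SE 0.09, adjusted p = 0.00661), without overlap. SLC2A14 is a near-identical duplicate of SLC2A3 and was also higher (log2 fold change 0.62, adjusted p = 0.0361), so reads may have been split between the copies. SLC2A3 was 8.20% ± 0.86 of the level of both transporters per kilobase in CD104high and 6.50% ± 0.88 in CD104low, and these shares overlapped.

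Lactate leaves through SLC16A3, an exporter of glycolytic cells that is also a HIF target. It had 32747 to 36933 reads in CD104high and 28880 to 40387 in CD104low, and it did not pass (adjusted p = 0.728). SLC16A1, the other common lactate transporter, was near the lower limit of the table, at 30.6, 26.8 and 16.5 against 24.3, 19.7 and 14.4 reads. At this depth a difference of SLC16A1 was not detectable (log2 fold change 0.31, SE 0.38, adjusted p = 0.597). Of 16 other tested transporters of these families and their partners, 7 were higher (43.8%) and 0 lower by limma, against 12.1% and 11.3% of all tested genes, with a median log2 fold change of 0.39, against 0.01. At an unadjusted p under 0.05 the counts were 8 higher and 0 lower, and edgeR and DESeq2 gave the same counts. Members of the list with the smallest p were SLC2A12, at 657 to 760 against 380 to 480 reads (1.68-fold, adjusted p = 0.00289), SLC16A5 (1.45-fold), SLC2A6 (1.24-fold) and SLC2A10 (1.99-fold). SLC2A6 did not pass once a trend with exon length and GC content was removed (adjusted p = 0.101), nor without CD104high replicate 1 or 3 or CD104low replicate 2 (0.0569 to 0.0584). SLC2A10 did not pass without CD104high replicate 1 or 3 or CD104low replicate 1 or 2 (0.0521 to 0.0782).

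After phosphorylation, GPI turns glucose phosphate into fructose phosphate. GPI had 14106, 14185 and 13955 reads in CD104high and 16239, 17997 and 17521 in CD104low. The CD104high libraries lay close together below all CD104low libraries, and the gene was 1.22-fold lower (log2 fold change −0.29, SE 0.06, adjusted p = 0.0105). Without both libraries numbered 3 its adjusted p was 0.0599.

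Phosphofructokinase, the main control point of the pathway, is a tetramer of PFKL, PFKM or PFKP subunits, named after liver, muscle and platelets. PFKL (chromosome 21, 44300051 to 44327376, plus strand) had 13046, 11210 and 14780 reads in CD104high and 8687, 7913 and 9256 in CD104low. It was 1.5-fold higher (log2 fold change 0.59, SE 0.10, adjusted p = 0.00342), without overlap. With the length and GC trend removed the difference was 0.39 on the log2 scale (adjusted p = 0.0205). PFKP had 20260, 18873 and 19604 against 24787, 23103 and 21525 reads and was 1.18-fold lower (log2 fold change −0.24, SE 0.07, adjusted p = 0.0373). This call ended without any 1 of 5 of the 6 libraries (adjusted p = 0.0692 to 0.128), the exception being CD104low replicate 3, and also once limma's mean-variance trend was dropped (adjusted p = 0.0955). PFKM, at 4543 to 4840 against 4897 to 5059, did not pass (adjusted p = 0.367). PFKP remained the subunit with the highest level per kilobase, but its share of the 3 was 65.9% ± 1.64 in CD104high and 74.3% ± 1.79 in CD104low. PFKL took up the difference, with 23.6% ± 2.30 and 15% ± 1.57, and PFKM had 10.5% ± 0.68 and 10.6% ± 0.45.

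The PFKFB enzymes make and remove the fructose bisphosphate that activates phosphofructokinase. PFKFB3, the form with the strongest synthetic activity and a HIF target, had 4692, 4652 and 4368 reads in CD104high and 5623, 6052 and 5183 in CD104low. It was 1.23-fold lower (log2 fold change −0.30, SE 0.07, adjusted p = 0.0193). Its call ended without any 1 of 4 libraries, the 3 of CD104high and CD104low replicate 2 (adjusted p = 0.0507 to 0.0748), and in limma without the trend (adjusted p = 0.0653). PFKFB2, a form known from heart, went the other way, at 3692, 3679 and 4153 against 2040, 2534 and 2867 reads. It was 1.56-fold higher (log2 fold change 0.64, SE 0.12, adjusted p = 0.0042). PFKFB4 had 1584 to 1824 against 1311 to 1577 reads, without overlap, and did not pass (log2 fold change 0.25, SE 0.10, adjusted p = 0.0848). With the replicate number added to the model as a block, PFKFB4 passed (adjusted p = 0.0246), and it passed without CD104low replicate 1 (adjusted p = 0.046). The log2 ratio of PFKFB2 to PFKFB3 was −0.25 ± 0.16 in CD104high and −1.19 ± 0.31 in CD104low.

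Aldolase splits the sugar bisphosphate. ALDOC, the form known from brain, had 746, 891 and 802 reads in CD104high and 470, 550 and 462 in CD104low, and was 1.64-fold higher (log2 fold change 0.72, SE 0.12, adjusted p = 0.00272). ALDOA, the usual form of dividing cells, stood at only 1089 to 1369 reads and did not pass (log2 fold change −0.10, SE 0.10, adjusted p = 0.501). Its value is uncertain, since 42.3% of its annotated exon bases belong also to a gene on the same strand that the table lists as LOC112694756, at 356 to 462 reads. No source used here says how reads in shared exons were assigned, and the level of ALDOA and its ratio to ALDOC are not read further.

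The enzymes from TPI1 to PKM lead from triose phosphate to pyruvate, and GAPDH, ENO1 and PKM among them held the highest levels of the set per kilobase. Per kilobase of exon GAPDH stood first, at 42417 ± 3227 in CD104high and 46133 ± 3114 in CD104low. ENO1 followed at 27964 ± 1003 and 27607 ± 2256, and PKM at 24076 ± 1468 and 23238 ± 2581, with ENO1 above PKM by more than either SD in both groups. TPI1, GAPDH, PGK1, PGAM1, ENO1 and PKM did not pass, with adjusted p between 0.148 (TPI1) and 0.889 (ENO1). TPI1 had 33420, 31659 and 31228 against 42840, 34825 and 33690 reads, all CD104high libraries below all CD104low ones (log2 fold change −0.20, SE 0.09). The log2 fold change of GAPDH was −0.12 (SE 0.09) and that of PGAM1 −0.10 (SE 0.06), and those of PGK1, ENO1 and PKM lay between 0.02 and 0.06. Processed pseudogenes named after GAPDH number 62 in the annotation, and those after PGAM1 13, so reads of these genes may have been shared with copies. A pair of enolases parted in their calls. ENO2, the neuronal enolase, had 5398, 5265 and 5364 reads in CD104high and 3959, 4610 and 4331 in CD104low, and was 1.24-fold higher (log2 fold change 0.32, SE 0.07, adjusted p = 0.0124). Without CD104high replicate 1 its adjusted p was 0.0502. ENO2 was 4.28% ± 0.19 of enolase per kilobase in CD104high and 3.53% ± 0.49 in CD104low.

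**Figure D3:**
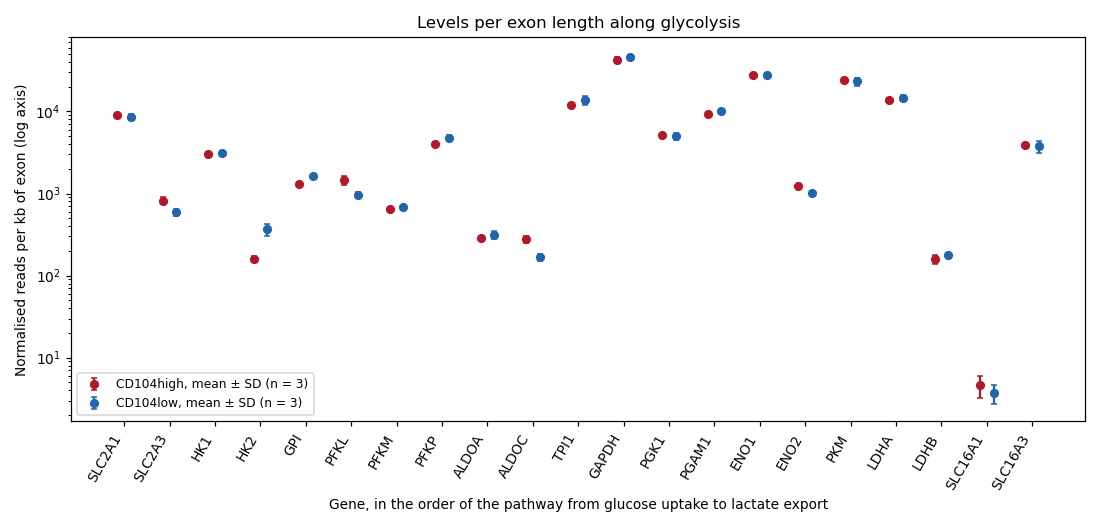
Normalised reads per kilobase of exon (vertical log axis, mean ± SD of 3 libraries) for 21 members in pathway order from glucose uptake to lactate export, red for CD104high and blue for CD104low. GAPDH is highest at 42417 and 46133 and SLC16A1 lowest at 4.64 and 3.66, and the visible gaps between groups are those of HK2, ALDOC, PFKL and SLC2A3.

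Lactate dehydrogenase reduces pyruvate to lactate. LDHA, the subunit of glycolytic cells and a classical HIF target, had 84872, 91050 and 78714 reads in CD104high and 99491, 91969 and 83928 in CD104low, and the groups overlapped (log2 fold change −0.11, SE 0.09, adjusted p = 0.407). LDHB, the heart-type subunit, had 410 to 535 against 502 to 570 reads and did not pass either (adjusted p = 0.347), and 33.4% of its exon bases are shared with another gene on the same strand. LDHA was 98.8% of lactate dehydrogenase per kilobase in both groups.

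Pyruvate dehydrogenase kinases keep pyruvate out of the mitochondrial cycle by switching off pyruvate dehydrogenase. PDK2 had 1712, 1545 and 1572 reads in CD104high and 1314, 1182 and 1182 in CD104low. It was 1.31-fold higher (log2 fold change 0.39, SE 0.09, adjusted p = 0.0105), with an adjusted p of 0.0515 without CD104high replicate 1. In the annotation 38.6% of its exon bases overlap SAMD14 on the other strand, and the strand setting of the counting is not given in the sources used here. PDK1, the kinase induced by HIF, had 1427 to 1884 against 1313 to 1599 reads (adjusted p = 0.326), and PDK3 had 723 to 778 against 569 to 766 (adjusted p = 0.336). Of 11 other tested genes of pyruvate entry into mitochondria 1 was higher (9.09%) and 2 were lower (18.2%), against 12.1% and 11.3% of all tested genes. MPC1, a subunit of the mitochondrial pyruvate carrier, had 863 to 939 against 1158 to 1274 reads and was 1.33-fold lower (adjusted p = 0.00992). DLAT, the acetyltransferase of pyruvate dehydrogenase, was 1.22-fold lower (adjusted p = 0.012), and PDP1, the phosphatase that opposes the kinases, 1.19-fold higher (adjusted p = 0.0241). PDK4 was at 22.7 to 81.4 reads and did not pass (log2 fold change 0.97, SE 0.35, adjusted p = 0.0678), but passed with the replicate block (adjusted p = 0.0269) and without CD104low replicate 2 (0.0226). The call of DLAT ended without CD104high replicate 1 (adjusted p = 0.0519), and that of PDP1 without CD104high replicate 2 or 3 or CD104low replicate 2 (0.0757 to 0.0944).

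**Figure D4:**
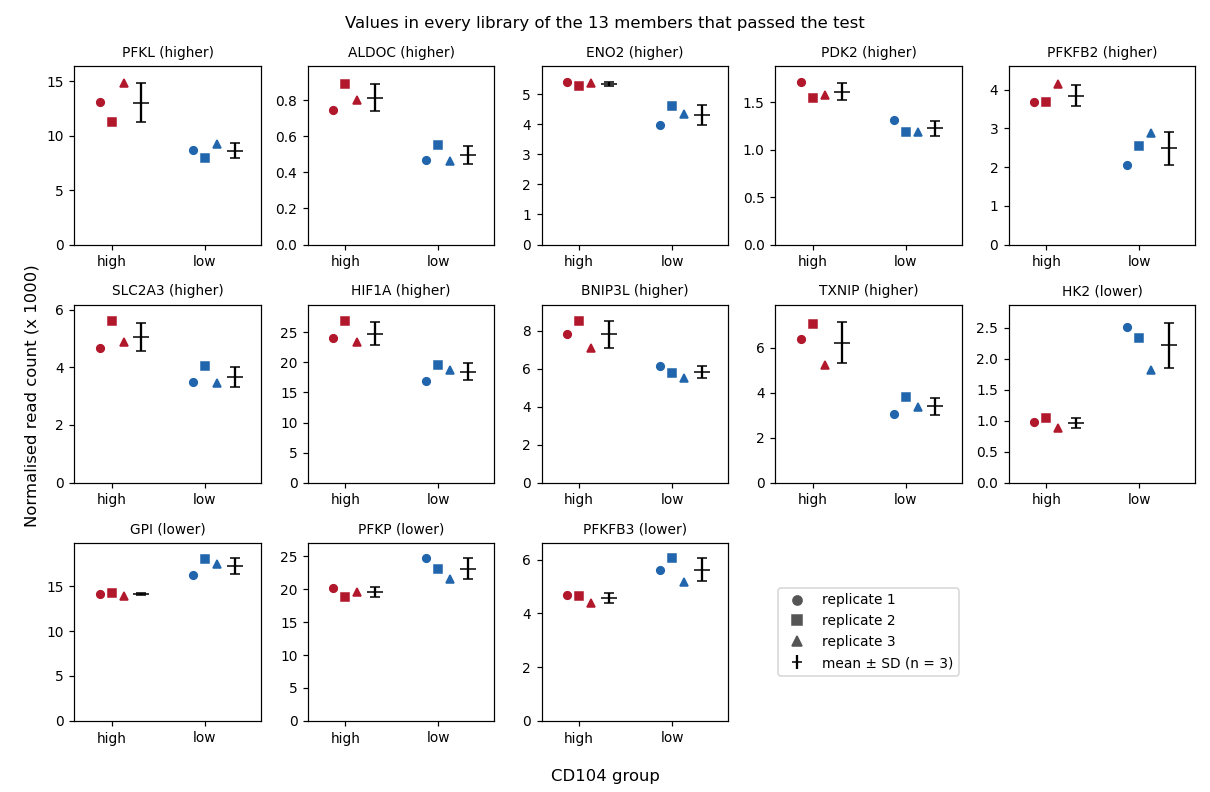
Normalised read count, with the scale factor marked on the axis (vertical axes from 0), in every library of the 13 members that passed the test, red for CD104high and blue for CD104low, with a symbol for each replicate number and black bars for the mean ± SD of 3 libraries. In each panel the groups do not overlap, and the widest relative gaps are those of HK2 and TXNIP.

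Among the HIF subunits, HIF1A (chromosome 14, 61695513 to 61748259, plus strand) had 23995, 26932 and 23455 reads in CD104high and 16890, 19649 and 18755 in CD104low. All CD104high libraries were above all CD104low libraries, and the gene was 1.35-fold higher (log2 fold change 0.43, SE 0.08, adjusted p = 0.00526). EPAS1, the other alpha subunit, had 8110, 9243 and 7333 against 7092, 9470 and 8290 reads (log2 fold change −0.01, SE 0.11, adjusted p = 0.975). The log2 ratio of EPAS1 to HIF1A was −1.60 ± 0.07 in CD104high and −1.16 ± 0.10 in CD104low, without overlap. ARNT, the shared partner, had 2946 to 3283 against 2594 to 2966 reads and did not pass (log2 fold change 0.18, SE 0.08, adjusted p = 0.131).

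Of the genes that mark HIF for destruction, the members EGLN1, EGLN2, EGLN3 and VHL did not pass. EGLN1, the main hydroxylase, had 1878, 1945 and 1913 reads in CD104high and 2093, 1781 and 1267 in CD104low (adjusted p = 0.405). EGLN3, a hydroxylase that HIF itself induces, had 102, 153 and 39.1 against 159, 132 and 66.9 reads (adjusted p = 0.584). The libraries numbered 3 were the lowest of EGLN3 in both groups, by more than the groups differed. EGLN2 had 206 to 312 reads over all libraries (adjusted p = 0.77), and 30.6% of its exon bases are shared with other genes on the same strand, among them a read-through gene, which makes its level uncertain. VHL had 2593 to 2790 against 2699 to 3014 reads (adjusted p = 0.334). Of 14 other tested regulators of HIF 2 were higher (14.3%) and 3 lower (21.4%), against 12.1% and 11.3% of all tested genes. P4HTM, a membrane-bound prolyl hydroxylase, was 1.32-fold higher (2882, 2902 and 3003 against 2288, 2132 and 2244 reads, adjusted p = 0.00346), and ARNT2, a paralog of ARNT, 1.3-fold higher (adjusted p = 0.00812). CUL2, the scaffold of the VHL ligase, was 1.16-fold lower (adjusted p = 0.0359), and RACK1, which binds HIF1A and the ribosome, 1.19-fold lower (adjusted p = 0.0243). Leaving out any 1 of the CD104high libraries, or CD104low replicate 2, ended the calls of CUL2 (0.0685 to 0.118) and RACK1 (0.0592 to 0.0839), and leaving out CD104low replicate 1 that of CUL2 (0.0567). Removing the length and GC trend ended the call of CUL2 too (0.0586), and neither CUL2 (0.0789) nor RACK1 (0.0575) passed without the mean-variance trend.

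BNIP3 and BNIP3L are related mitophagy receptors and HIF targets. BNIP3L had 7852, 8514 and 7072 reads in CD104high and 6169, 5791 and 5513 in CD104low, and was 1.34-fold higher (log2 fold change 0.42, SE 0.08, adjusted p = 0.00576). BNIP3 had 8845, 9551 and 8299 against 10431, 8478 and 8638 reads, with overlap (log2 fold change −0.04, SE 0.09, adjusted p = 0.781), and 39 processed pseudogenes carry its name in the annotation. Per kilobase BNIP3L was 52.0% ± 0.62 of the pair in CD104high and 44.0% ± 1.78 in CD104low. NDRG1, a stress gene and a marker of hypoxia, had 8994 to 10738 against 8303 to 9920 reads (adjusted p = 0.212). ANKRD37, a small HIF target, had 311 to 358 against 300 to 444 reads (adjusted p = 0.528), and 35.2% of its exon bases overlap UFSP2 on the other strand.

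Of 38 other hypoxia targets tested, 6 were higher (15.8%), 5 were lower (13.2%) and 27 did not pass. These shares are near those of all tested genes, 12.1% and 11.3%, and the median log2 fold change was 0.14, against 0.01. ADM, which encodes the peptide adrenomedullin, had 3014 to 3312 reads in CD104high and 5683 to 7635 in CD104low, and was 2.18-fold lower (log2 fold change −1.13, SE 0.11, adjusted p = 0.000277). VEGFA, named after its values were seen, was 1.54-fold lower (955 to 1610 against 1754 to 2467 reads, limma adjusted p = 0.0398). AK4, a mitochondrial adenylate kinase, was 1.37-fold higher (2751 to 3277 against 2131 to 2327, adjusted p = 0.00562), and BHLHE40, a repressor of transcription, 1.36-fold higher (adjusted p = 0.00401). MYC, a transcription factor that also drives many glycolytic genes, had 5247, 5370 and 5236 reads in CD104high and 8384, 8195 and 7455 in CD104low, and was 1.51-fold lower (adjusted p = 0.00046).

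TXNIP (chromosome 1, 145992435 to 145996600, minus strand) encodes an arrestin-like protein that promotes the removal of glucose transporters from the membrane, and MondoA induces it when glucose phosphate is plentiful. It had 6371, 7027 and 5230 reads in CD104high and 3057, 3796 and 3339 in CD104low. The lowest CD104high library was well above the highest CD104low library, and the difference was 0.86 on the log2 scale (SE 0.11, adjusted p = 0.00103). Of 10 tested partners and relatives of TXNIP, 0 were higher and 1 was lower (10.0%) by limma, against 12.1% and 11.3% of all tested genes. At an unadjusted p under 0.05 the counts were 1 and 2, and the adjusted counts were 0 and 1 by edgeR and 0 and 2 by DESeq2. MLX, the partner of MondoA, was 1.27-fold lower (4681 to 5719 in CD104low, 3963 to 4258 in CD104high, adjusted p = 0.0153), a call that ended without CD104high replicate 1 (0.0638). MLXIPL, which encodes ChREBP, was at 34.5 to 88.3 reads, 1.75-fold higher without passing (SE 0.27 on the log2 scale, adjusted p = 0.0543). MLXIPL did pass with the replicate block (adjusted p = 0.0452) and without CD104high replicate 3 (0.0482) or CD104low replicate 3 (0.0489). It also passed without both libraries numbered 3 (0.0201) and in limma without the mean-variance trend (0.0446). ARRDC1, an arrestin-domain relative, had a log2 fold change of 0.17 (adjusted p = 0.152). TXN, the thioredoxin that TXNIP binds, differed by −0.29 on that scale (SE 0.12, adjusted p = 0.0998). TXN passed by DESeq2 (adjusted p = 0.0442) and in limma without both libraries numbered 3 (0.0176).

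Branches off glycolysis were followed with lists of their own. Of 10 tested genes of the pentose phosphate pathway 2 were higher (20.0%) and 1 lower (10.0%), against 12.1% and 11.3% of all tested genes. H6PD, which runs its first steps inside the endoplasmic reticulum, had 7325, 7897 and 6721 against 4576, 5049 and 4844 reads (1.51-fold higher, adjusted p = 0.000922). RPIA, the isomerase of ribose phosphate, had 1179, 1210 and 1139 against 1844, 1710 and 1694 (1.49-fold lower, adjusted p = 0.00132). PGLS was 1.25-fold higher (adjusted p = 0.0209) and missed the threshold with the length and GC trend removed (adjusted p = 0.0511) and without CD104high replicate 1 or 3 or CD104low replicate 2 (0.0702 to 0.0761), and TKT, a transketolase, differed by −0.24 on the log2 scale (SE 0.10, adjusted p = 0.109) and passed with the replicate block (adjusted p = 0.0196). Of 12 tested genes of glycogen metabolism 1 was higher (8.33%) and 2 lower (16.7%), against the same shares of all tested genes. PGM2, a phosphopentomutase, was 1.44-fold lower (5130 to 6385 against 8213 to 8545 reads, adjusted p = 0.00217), and GYG1, the primer of glycogen, 1.33-fold lower (adjusted p = 0.0112). GYS1, the glycogen synthase, was 1.18-fold higher (adjusted p = 0.0239), a call that ended without any 1 of the CD104high libraries or CD104low replicate 2 (0.0578 to 0.0858). G6PC3, a glucose phosphatase, differed by 0.22 on the log2 scale (SE 0.08, adjusted p = 0.0603). It passed with the replicate block (adjusted p = 0.0302), without CD104low replicate 1 (0.0126) and by DESeq2 (0.0454). With scaling to equal totals (0.0362) or the length and GC trend removed (0.03) G6PC3 passed too.

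Of 11 other tested isozymes and enzymes of glycolysis 2 were higher (18.2%) and 3 lower (27.3%), against 12.1% and 11.3% of all tested genes. HKDC1, a hexokinase relative, had 400, 429 and 400 against 322, 283 and 272 reads (1.40-fold higher, adjusted p = 0.0215). BPGM, which makes the bisphosphoglycerate of red cells, was 1.36-fold lower (adjusted p = 0.0177). PGAM5, a mitochondrial phosphatase that shares only a fold with the mutases, was 1.48-fold lower (2563 to 3084 against 3683 to 4898 reads, adjusted p = 0.00576). LDHD, which uses the other enantiomer of lactate, was 1.66-fold higher at 74.8 to 159 reads (adjusted p = 0.0275). The calls of HKDC1 (0.0503 to 0.0818, 4 libraries), BPGM (0.0515 and 0.0596, CD104high replicates 1 and 2) and LDHD (0.0821 to 0.102, CD104high replicates 2 and 3 and CD104low replicate 2) each ended when 1 library was left out, those for HKDC1 being CD104high replicates 1 and 2 and CD104low replicates 2 and 3. Without the mean-variance trend, adjusted p was 0.0664 for PDP1, 0.0568 for GYS1, 0.0613 for MLX, 0.0623 for PGLS and 0.061 for SLC2A10.

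In the authors' deposited table the same 39 members gave 9 higher and 4 lower at an adjusted p under 0.05, and these were the 13 genes called here.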

How the data were processed

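Gene expression was measured by RNA-seq in 6 samples of sorted MDA-MB-231 cells. The submitters' processing notes name DESeq2 1.30.1, featureCounts 1.5.0, STAR 2.4.0, FastQC and the builds GRCh38.p13 and hg38, with no roles. The strand setting of the counting is not given in the sources used here. The authors deposited a signal per gene and library, gene read counts divided by 1 size factor per library, and 100% of values lay within 0.1 of a whole read on division by the size of 1 read (0.97 to 1.03). In CD104high replicate 2 that size is so near 1 that this recovery cannot be told from rounding, which limits the count tests. They also deposited log2 fold changes with standard errors, a test statistic (a score) and p-values.

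On log2(value + 1), limma-trend (version 3.58.1, R 4.3.3) compared the groups over the 14343 genes whose value reached 10 in 3 or more of the 6 libraries, with Benjamini-Hochberg adjustment over all of them. Fold changes on that scale understate low genes. Exon lengths are unions of exons of GENCODE release 29 on GRCh38, matched without version. Isozyme ratios were tested with exact permutation (scipy 1.17.1). Scripts were tested on simulated data.

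Named were all members, the 4 genes with the smallest p of each of 8 pathway lists, ITGB4, ADM and MYC, except 1 gene that is not reported here. SLC2A14, LOC112694756 and marker genes were named after their values were seen. Members and lists were chosen with earlier results of these data known. Whether replicates are separate cultures is not stated, so a p-value reflects only how these samples vary. Same-numbered libraries deviated together across genes (correlations 0.17, 0.32 and 0.48). Libraries 1 and 2 of opposite groups also correlated (0.13 and 0.09), while number 3 and the other numbers gave values between −0.37 and −0.22. Deviations were taken from each group's own mean, so these correlations depend on one another. The link is clearest for number 3, and for number 1 the value of 0.17 is little above 0.13. From these data the numbers were taken as pairs in the replicate block and where same-numbered pairs are named. The main fit and the permutation test did not pair the samples. Alternatives were edgeR 4.0.16 and DESeq2 1.42.0 on recovered reads, other scalings, pseudocounts and thresholds, no filter, no trend, the replicate block and each library left out. Leaving out both libraries numbered 3 and removing a trend with exon length and GC content were chosen after seeing the data.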

Additional observations from a re-analysis of the deposited data

How the results depend on the processing

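All 13 called members kept their direction in each of 20 alternatives. Besides an adjusted p under 0.01, HK2, PFKL, ALDOC, PFKFB2, SLC2A3, HIF1A, BNIP3L and TXNIP kept their call in every one, and these 8 also passed 0.01. With 1 library left out, members higher numbered 7 to 10 and members lower 2 to 4, and all genes higher 1017 to 1766 and lower 799 to 1547. Members lower numbered 2 in limma without the trend, where 936 of all genes were lower, and 1 at an adjusted p under 0.01, where 826 of all genes were higher and 610 lower. With the replicate block 10 members were higher and 4 lower, against 17.4% and 15.4% of all genes (2498 and 2208), and the block changed no call of a member but that of PFKFB4. Together with the length and GC trend removed, it gave 11 members higher and 5 lower, with ARNT (adjusted p = 0.0287) and TPI1 (adjusted p = 0.0152) added, and 2698 and 2545 of all genes. The cause of these changes was not tested. Of the 26 uncalled members, 10 changed sign in at least 1 alternative, none with a call. The median over the members lay between −0.00206 (without CD104low replicate 3) and 0.11. Low counts limit SLC16A1 and EGLN3.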

Other observations

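The libraries numbered 3 had the lowest value within both groups for 15 of the 39 members (38.5%), against 16.9% of all tested genes, and the highest within both for 3 (7.69%), against 16.8%. Among the 15 were EGLN3, HK2, LDHA, PDK1, PFKFB3, PFKFB4, PKM and SLC16A3. EGLN3 stood furthest from the other libraries, with a mean log2 difference of −1.38. Of the 38 other tested hypoxia targets 23 were lowest in both libraries numbered 3 (60.5%), with a median log2 difference of −0.21, against a median of −0.0011 over all tested genes. ADM, VEGFA, DDIT4, LOX, P4HA1 and KDM3A were among them, picked as examples after the values were seen. Of the 3 HIF subunits and the 12 tested glycogen genes 0 were lowest in both libraries numbered 3. These libraries were instead the highest in both groups for 5 of the 12 glycogen genes (41.7%) and 4 of 11 genes of pyruvate entry (36.4%), against 16.8% of all tested genes.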
